A study of Mus musculus with 35 samples.

Results

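Annexin A1, its formyl peptide receptors and the enzymes of the lipoxygenase pathway were followed as 8 genes, Anxa1, Fpr1, Fpr2, Alox5, Alox5ap, Alox15, Lta4h and Ltc4s, across every treatment and both genotypes of a macrophage experiment. The genes were taken by symbol, and each matched 1 of the 47069 Ensembl identifiers in the files. Bone marrow of C57BL/6 mice, either wild type (WT) or labelled AMPKa1-/-, was grown into bone marrow-derived macrophages (BMDMs) in medium conditioned by L929 cells, a fibroblast line that secretes the growth factor CSF1. The cells then received 1 of 6 treatments for 24 h: vehicle (DMSO), 100 nM dexamethasone (Dex, a synthetic glucocorticoid), 100 ng/ml LPS (bacterial lipopolysaccharide), LPS with Dex, 1 µg/ml DAMPs (damage-associated molecular patterns) or DAMPs with Dex. There were 35 libraries of total RNA, 17 WT and 18 labelled AMPKa1-/-, with 3 per group except for WT LPS, which had 2 (replicates 2 and 3; replicate 1 was not analysed here). By the study's methods the cultures came from individual mice, and its experiments used young adult animals of both sexes; the labels do not give the age or sex of single mice.

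Annexin A1 is a calcium-dependent phospholipid-binding protein that is stored in the cytosol of myeloid cells, is released on activation and is widely described as a mediator of glucocorticoid action. It acts through FPR2, a G protein-coupled receptor of the formyl peptide family, while FPR1, the classic receptor for bacterial formylated peptides, drives chemotaxis and oxidative burst. In the leukotriene branch, 5-lipoxygenase (Alox5) together with its membrane scaffold FLAP (Alox5ap) turns arachidonic acid into leukotriene A4, which leukotriene A4 hydrolase (Lta4h) converts to the chemoattractant leukotriene B4 and leukotriene C4 synthase (Ltc4s) to the cysteinyl leukotrienes. The 12/15-lipoxygenase (Alox15), typical of resident and alternatively activated macrophages, takes part with 5-lipoxygenase in making lipoxins, which also bind FPR2.

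Both receptor genes lie side by side on chromosome 17 of GRCm38 and are read away from each other: Fpr1 occupies chr17:17876471-17883940 on the minus strand, Fpr2 chr17:17887824-17893952 on the plus strand, and 3883 bases separate their starts. The bases just upstream of each start, from RefSeq (GRCm38.p6; 5 of the 8 genes had usable entries there), are shown because this pair moved together across the treatments. Each run is written 5′ to 3′ on the strand of its gene and ends at the base before the GENCODE gene start. Fpr1 comes from chr17:17883941-17884189 (minus strand) and Fpr2 from chr17:17887574-17887823 (plus strand).
Fpr1: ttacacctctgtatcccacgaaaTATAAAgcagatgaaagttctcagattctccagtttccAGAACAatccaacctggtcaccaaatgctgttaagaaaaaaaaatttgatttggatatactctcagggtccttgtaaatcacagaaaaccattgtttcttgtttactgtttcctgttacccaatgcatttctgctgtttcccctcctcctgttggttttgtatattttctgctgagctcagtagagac
Fpr2: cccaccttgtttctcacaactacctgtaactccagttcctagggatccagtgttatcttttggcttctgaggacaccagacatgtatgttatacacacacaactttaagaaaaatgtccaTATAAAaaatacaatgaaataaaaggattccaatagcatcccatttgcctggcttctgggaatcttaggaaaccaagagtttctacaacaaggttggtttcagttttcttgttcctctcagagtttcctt
The capitals mark every match to 8 motifs that were searched on both strands. TATAAA occurred once in each window, at -226 in Fpr1 and -130 in Fpr2. AGAACA, a single arm of the glucocorticoid response element, occurred once, at -188 of Fpr1. Among 32851 RefSeq promoter windows TATAAA was in 12.4% and AGAACA in 16.1%. The letters searched for the full glucocorticoid response element (AGAACA, then NNN, then TGTTCT), AP-1 (TGANTCA), C/EBP (TTGCGCAA), the interferon-stimulated response element (GAAA, then NN, then GAAA), PU.1 (GAGGAAGT) and NF-kB, which occurred in 0.00913%, 6.75%, 0.164%, 2.98%, 2.44% and 7.25% of windows, were not in either window. Fpr2 shares 31.5% of its 50-base transcript words with Fpr3 and with 2 further identifiers at the locus, and Fpr3 overlaps Fpr2 on the same strand. Fragments of Fpr2 could therefore be credited to another of these identifiers or left uncounted. Fpr3 itself was at most 0.832 FPKM, which does not show how many fragments of Fpr2 were left uncounted. The other 7 genes shared no such words.

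Before the genes of interest, the treatments and the genotype label were checked. The glucocorticoid-induced gene Tsc22d3 read 54.3, 51.7 and 54.6 FPKM in WT vehicle and 724, 667 and 736 in WT Dex. The cytokine gene Il6 read 489 and 524 FPKM in WT LPS against 0.0426, 0.0933 and 0.157 in vehicle and 3.59, 1.32 and 6.84 in LPS + Dex. Prkaa1, which encodes AMPKa1, was not called lower in the libraries labelled AMPKa1-/-: it read 15.9, 11.8 and 15.3 FPKM in WT vehicle and 14.8, 16.5 and 15.4 in vehicle labelled AMPKa1-/-, and none of the 6 treatments gave a called difference (log2 fold changes -0.29 to 0.33). A value over the whole gene cannot show whether an exon is missing, so the genotype is written throughout as the label gives it. All 10 macrophage markers were present, led by the lysozyme gene Lyz2 at 10344 to 35906 FPKM.

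FPKM divide a gene's fragments by its length and by the library's total, so levels of different genes can be set side by side, and library totals read from the values were 15837203 to 31955298 fragments. On this scale Anxa1 was the most abundant of the 8 in vehicle, at 2281, 1526 and 2656 FPKM in the WT libraries. It was followed by Alox5ap, at 133, 187 and 167, and Lta4h, at 40.2, 48.4 and 43.1. Fpr2, Alox5 and Fpr1 were each under 10 FPKM in WT vehicle. Ltc4s and Alox15 averaged 0.908 and 0.0501 FPKM over all libraries, below the mean of 1 FPKM required for the test, so 6 of the 8 genes were tested among 11354.

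**Figure D1:**
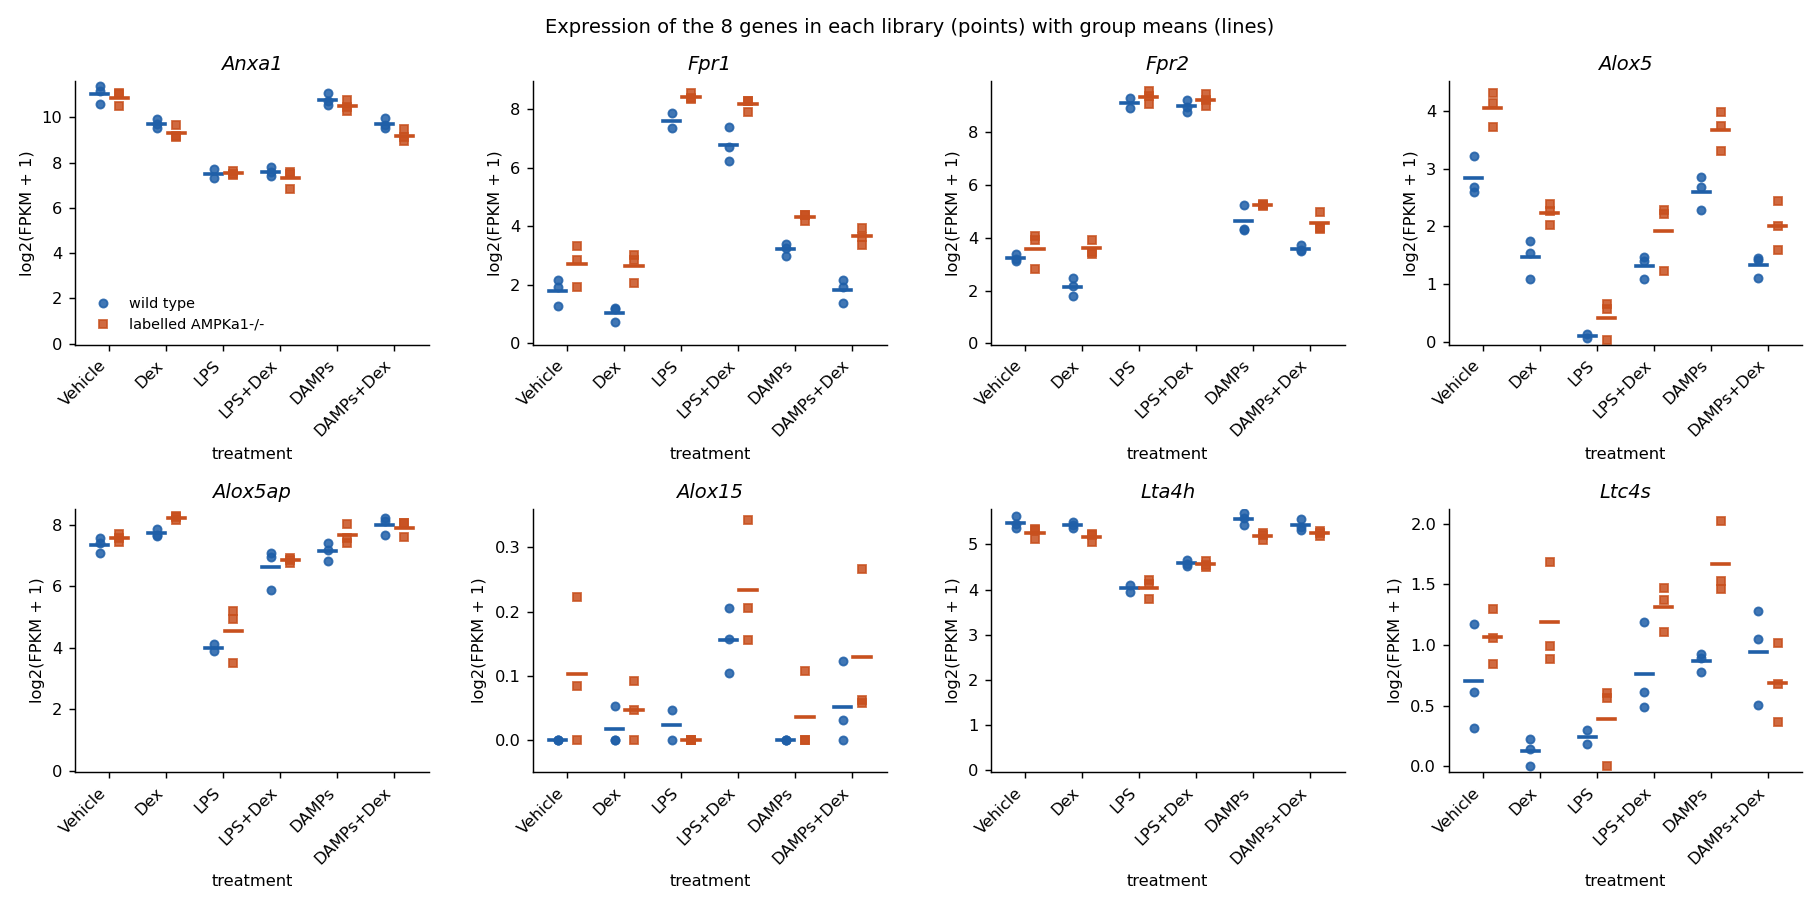
Each panel plots 1 gene, with log2(FPKM + 1) on the vertical axis and the 6 treatments on the horizontal axis. Points are libraries (blue circles WT, orange squares labelled AMPKa1-/-) and short lines are group means; Fpr1 and Fpr2 stand high with LPS, where Anxa1, Alox5, Alox5ap and Lta4h stand low, and vertical scales differ between panels.

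LPS raised both receptors from low to high expression and lowered annexin A1 and the leukotriene enzymes, in both genotypes. All 6 tested genes passed the test, 2 upward and 4 downward, where 55.7% of all genes tested passed it in WT and 64.3% in libraries labelled AMPKa1-/-. The changes are log2 fold changes of FPKM + 1 from limma with their standard errors (SE), fitted over all 35 libraries in 12 groups, and p-values are adjusted over the 11354 genes, with calls at 0.05. Comparisons that use the same vehicle or LPS libraries share their error.

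Fpr1 read 2.75, 3.51 and 1.40 FPKM in WT vehicle and 229 and 164 in WT LPS, a ratio of means of 77.1. In libraries labelled AMPKa1-/- it read 6.18, 9.11 and 2.83 in vehicle and 377, 331 and 323 with LPS. Its log2 changes were 5.83 ± 0.34 (adjusted p = 3.34e-14) in WT and 5.72 ± 0.31 (adjusted p = 3.0e-15) in libraries labelled AMPKa1-/-. Every LPS library therefore lay far above every vehicle library of its genotype. Fpr2, the receptor for annexin A1, went from 7.66, 9.50 and 8.10 FPKM to 620.4 and 474 in WT. In libraries labelled AMPKa1-/- it went from 13.9, 15.5 and 6.07 to 662, 529.6 and 740.1. The rises were 5.85 ± 0.29 and 5.73 ± 0.26, close in size to those of its neighbour.

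Anxa1, the ligand, moved the other way: WT LPS libraries held 159 and 207 FPKM, 11.8-fold less than the vehicle mean. Libraries labelled AMPKa1-/- held 1451, 2132 and 2069.6 FPKM in vehicle and 173, 195 and 181 with LPS. The log2 changes were -3.52 ± 0.24 (adjusted p = 1.07e-12) and -3.34 ± 0.22 (adjusted p = 2.31e-13), and groups did not overlap. With LPS the order of receptor and ligand was thus turned round, Fpr2 being above Anxa1 in each of the 5 LPS libraries.

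Alox5, the enzyme that starts leukotriene synthesis, fell from 5.08, 8.36 and 5.39 FPKM to 0.0533 and 0.0951 in WT. Under the label AMPKa1-/- it fell from 16.6, 18.8 and 12.2 to 0.489, 0.569 and 0.0285. The log2 changes were -2.73 ± 0.29 and -3.63 ± 0.26 (adjusted p = 5.75e-09 and 1.61e-12), which understate the change because the LPS values lie below the added 1 FPKM. Its partner Alox5ap fell from 133, 187 and 167 to 13.7 and 16.4 FPKM in WT, by 10.8-fold, and from 204, 186 and 171 to 35.8, 29.5 and 10.3 with the label AMPKa1-/-. The changes of Alox5ap were -3.34 ± 0.33 and -3.01 ± 0.30. Lta4h, the next enzyme, changed least of the 6, by -1.45 ± 0.12 in WT (from 40.2, 48.4 and 43.1 to 14.4 and 16.3 FPKM) and -1.22 ± 0.10 with the label AMPKa1-/-. The median change of all tested genes was -0.19 in WT and -0.30 with the label AMPKa1-/-, and centring libraries on one median raised the share of calls that were higher from 35.7% to 46.3% and from 31.4% to 49.0%, while the direction of the 6 genes stayed.

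Ordered by group mean, Anxa1 was highest in vehicle and DAMPs, whose ranges overlapped, then in Dex and DAMPs + Dex, which overlapped, and lowest in LPS and LPS + Dex, which overlapped too, in both genotypes. The group means of WT ran from 2154 FPKM in vehicle to 183 in LPS. Fpr2 in WT fell in the order LPS (mean 547 FPKM), LPS + Dex (502), DAMPs (24.6), DAMPs + Dex (11), vehicle (8.42) and Dex (3.50), with an overlap of neighbours only between LPS and LPS + Dex. With the label AMPKa1-/- the order of Fpr2 was the same, and vehicle and Dex also overlapped.

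**Figure D2:**
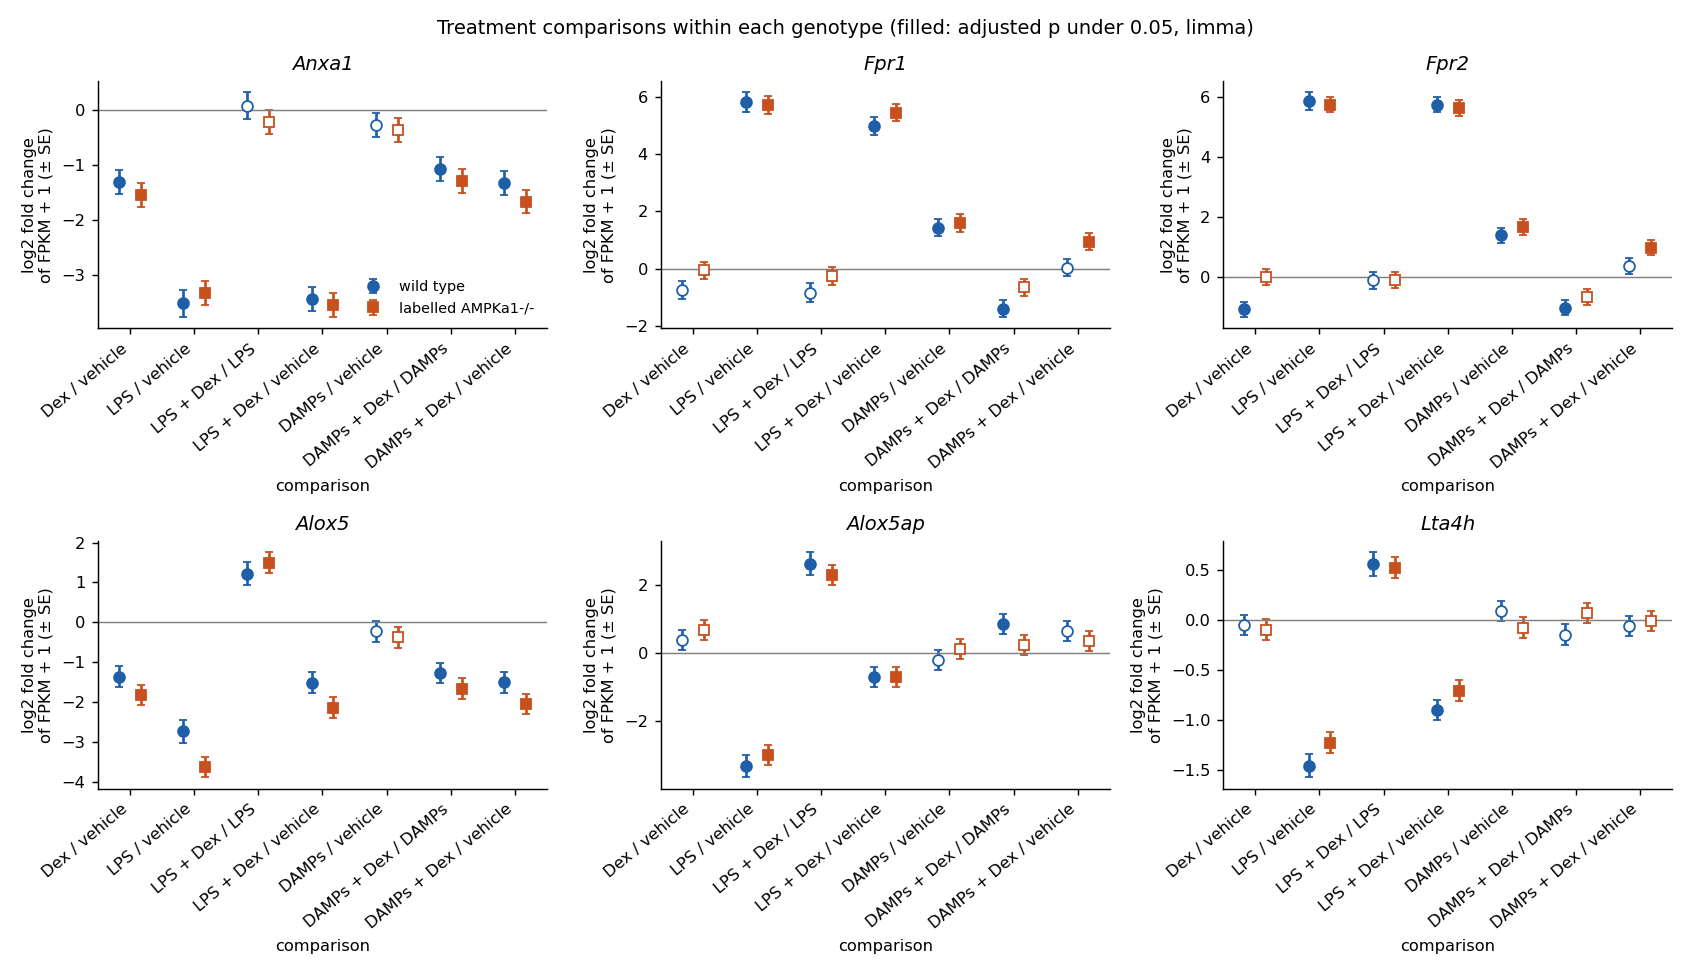
Log2 fold change of FPKM + 1 (vertical axis, with bars of 1 SE from limma) for 7 treatment comparisons (horizontal axis) in WT (blue circles) and libraries labelled AMPKa1-/- (orange squares). Filled symbols have an adjusted p under 0.05; Fpr1 and Fpr2 rise by over 5 with LPS in both genotypes, Anxa1 falls with Dex and with LPS, and vertical scales differ between panels.

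Dex alone lowered Anxa1 and Alox5 in both genotypes, and Fpr2 in WT. Of the 6 tested genes, 3 fell and none rose in WT, where 14.9% of all genes were called lower, and 2 fell with the label AMPKa1-/-, where 16% were. Anxa1 read 961, 739 and 839.9 FPKM in WT Dex, 2.55-fold below vehicle, with a log2 change of -1.32 ± 0.22 (adjusted p = 3.53e-05). In Dex libraries labelled AMPKa1-/- it read 575, 799 and 555, a change of -1.55 ± 0.22 (adjusted p = 3.47e-06). No Dex library reached the lowest vehicle library of its genotype.

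Alox5 read 1.14, 1.92 and 2.37 FPKM in WT Dex (change -1.37 ± 0.26, adjusted p = 1.97e-04). Dex libraries labelled AMPKa1-/- held 4.26, 3.79 and 3.09 (change -1.83 ± 0.26, adjusted p = 4.22e-06). Fpr2 read 3.48, 2.46 and 4.57 FPKM in WT Dex, below all 3 vehicle libraries (-1.09 ± 0.26, adjusted p = 0.00201). The corresponding Dex libraries labelled AMPKa1-/- held 9.41, 14.1 and 10.1, which overlapped vehicle (0.00 ± 0.26, and -0.38 without vehicle replicate 3 of that label). The genotype difference in this Dex effect on Fpr2, tested directly, was 1.09 ± 0.36 with an adjusted p of 0.194, so a difference between the genotypes was not shown. With 1 library left out this difference was 0.70 to 1.32. Fpr1 changed by -0.75 ± 0.31 in WT (adjusted p = 0.063) and -0.07 ± 0.31 with the label AMPKa1-/-. In WT this call was on the border: a pseudocount of 0.1 gave -1.15 (adjusted p = 0.021) and centring on one median gave -0.84 (adjusted p = 0.0393), and it also passed without any 1 of 5 libraries (adjusted p = 0.0250 to 0.0492). Alox5ap was higher in every Dex library than in every vehicle library of its genotype, but its changes of 0.38 ± 0.30 and 0.67 ± 0.30 did not pass (adjusted p = 0.341 and 0.0928). With the label AMPKa1-/- the change did pass when only the groups compared were fitted (adjusted p = 0.0015) and without LPS replicate 3 of that label (adjusted p = 0.0233). Lta4h changed by -0.05 ± 0.10 and -0.10 ± 0.10.

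Dex given with LPS raised the leukotriene enzymes and left Anxa1 and Fpr2 near their LPS levels. Of the 6 tested genes, Alox5, Alox5ap and Lta4h rose and none fell, in WT (16.6% of all genes called higher) and with the label AMPKa1-/- (19.3%). Alox5ap read 57.1, 133 and 123 FPKM in WT LPS + Dex, 6.93-fold the LPS mean, with a change of 2.63 ± 0.33 (adjusted p = 3.09e-07). With the label AMPKa1-/- it read 114, 108 and 119, a change of 2.29 ± 0.30 (adjusted p = 3.57e-07). All LPS + Dex libraries exceeded all LPS libraries, although WT replicate 1 stood well below the other replicates of its group. Alox5 read 1.77, 1.63 and 1.14 FPKM in WT and 3.65, 3.88 and 1.35 with the label AMPKa1-/-. Its changes were 1.22 ± 0.29 (adjusted p = 0.00154) and 1.49 ± 0.26 (adjusted p = 3.47e-05), with no overlap between groups. Lta4h read 24.4, 22.0 and 22.7 FPKM in WT and 23.9, 22.4 and 21.6 with the label AMPKa1-/-, for changes of 0.55 ± 0.12 and 0.52 ± 0.10 (adjusted p = 3.64e-04 and 1.80e-04). Fitted on the WT LPS and LPS + Dex libraries alone, Lta4h had an adjusted p of 0.0551, and Alox5 fell below the mean of 1 FPKM and was not tested.

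The ligand and its receptor did not pass the test here. Anxa1 read 191, 220.5 and 169 FPKM in WT LPS + Dex and 180.3, 191 and 112 with the label AMPKa1-/-, which overlap the LPS values, and changed by 0.08 ± 0.24 (adjusted p = 0.836) and -0.22 ± 0.22 (adjusted p = 0.471). The sign of the WT value turned without WT LPS replicate 2 (-0.11). Fpr2 read 429, 487 and 591 FPKM in WT and 592, 505 and 691 with the label AMPKa1-/-, changes of -0.12 ± 0.29 and -0.11 ± 0.26. Fpr1 read 104, 166 and 72.9 in WT, overlapping LPS at 1 library, and 311, 311 and 239 with the label AMPKa1-/-, where the groups did not overlap. Its changes were -0.84 ± 0.34 (adjusted p = 0.0573) and -0.27 ± 0.31 (adjusted p = 0.54). With the label AMPKa1-/- the change was -0.33 to -0.14 with 1 library left out. Without WT LPS+Dex replicate 2 the WT change of Fpr1 was -1.15 and passed (adjusted p = 0.0142), and it also passed, at -0.84, without any 1 of 4 libraries of other groups (adjusted p = 0.0331 to 0.0493).

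Set against vehicle, LPS + Dex cells kept the LPS pattern: 2 genes rose and 4 fell in both genotypes (54.2% and 57.4% of all genes passed). Fpr2 was higher by 5.73 ± 0.26 and 5.62 ± 0.26, and Fpr1 by 4.99 ± 0.31 and 5.45 ± 0.31. The change was -3.44 ± 0.22 and -3.56 ± 0.22 for Anxa1, and -1.52 ± 0.26 and -2.14 ± 0.26 for Alox5. Lta4h (-0.90 ± 0.10 and -0.70 ± 0.10) and Alox5ap came nearest to vehicle, Alox5ap at -0.71 ± 0.30 (adjusted p = 0.0452) and -0.72 ± 0.30 (adjusted p = 0.0411). Both Alox5ap calls were lost when libraries were centred on one median (-0.48 and -0.43), and the WT change was -0.33 (adjusted p = 0.351) without LPS+Dex replicate 1. Both also had adjusted p-values over 0.05 without several other single libraries.

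The effect of Dex differed between cultures with and without LPS for 4 of the 6 genes in each genotype, all upward (14.9% of all genes upward in WT and 15.5% with the label AMPKa1-/-). The difference is the log2 change with Dex under LPS minus that without LPS. For Alox5 it was 2.59 ± 0.39 in WT (adjusted p = 9.67e-06) and 3.32 ± 0.37 with the label AMPKa1-/- (adjusted p = 7.61e-08), since Dex lowered Alox5 without LPS and raised it with LPS. For Anxa1 it was 1.40 ± 0.33 and 1.33 ± 0.31 (adjusted p = 0.00164 and 0.00147), a fall without LPS and no called change with it. For Alox5ap it was 2.25 ± 0.45 and 1.62 ± 0.42, and for Lta4h 0.61 ± 0.15 and 0.62 ± 0.15, all called. Fpr1 showed -0.09 ± 0.46 and -0.20 ± 0.43, neither called. Fpr2 in WT gave 0.96 ± 0.39 with an adjusted p of 0.0574, which passed under quantile normalization (1.10, adjusted p = 0.0379) and some other settings. Fpr2 showed -0.11 ± 0.36 with the label AMPKa1-/- (adjusted p = 0.863).

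**Figure D3:**
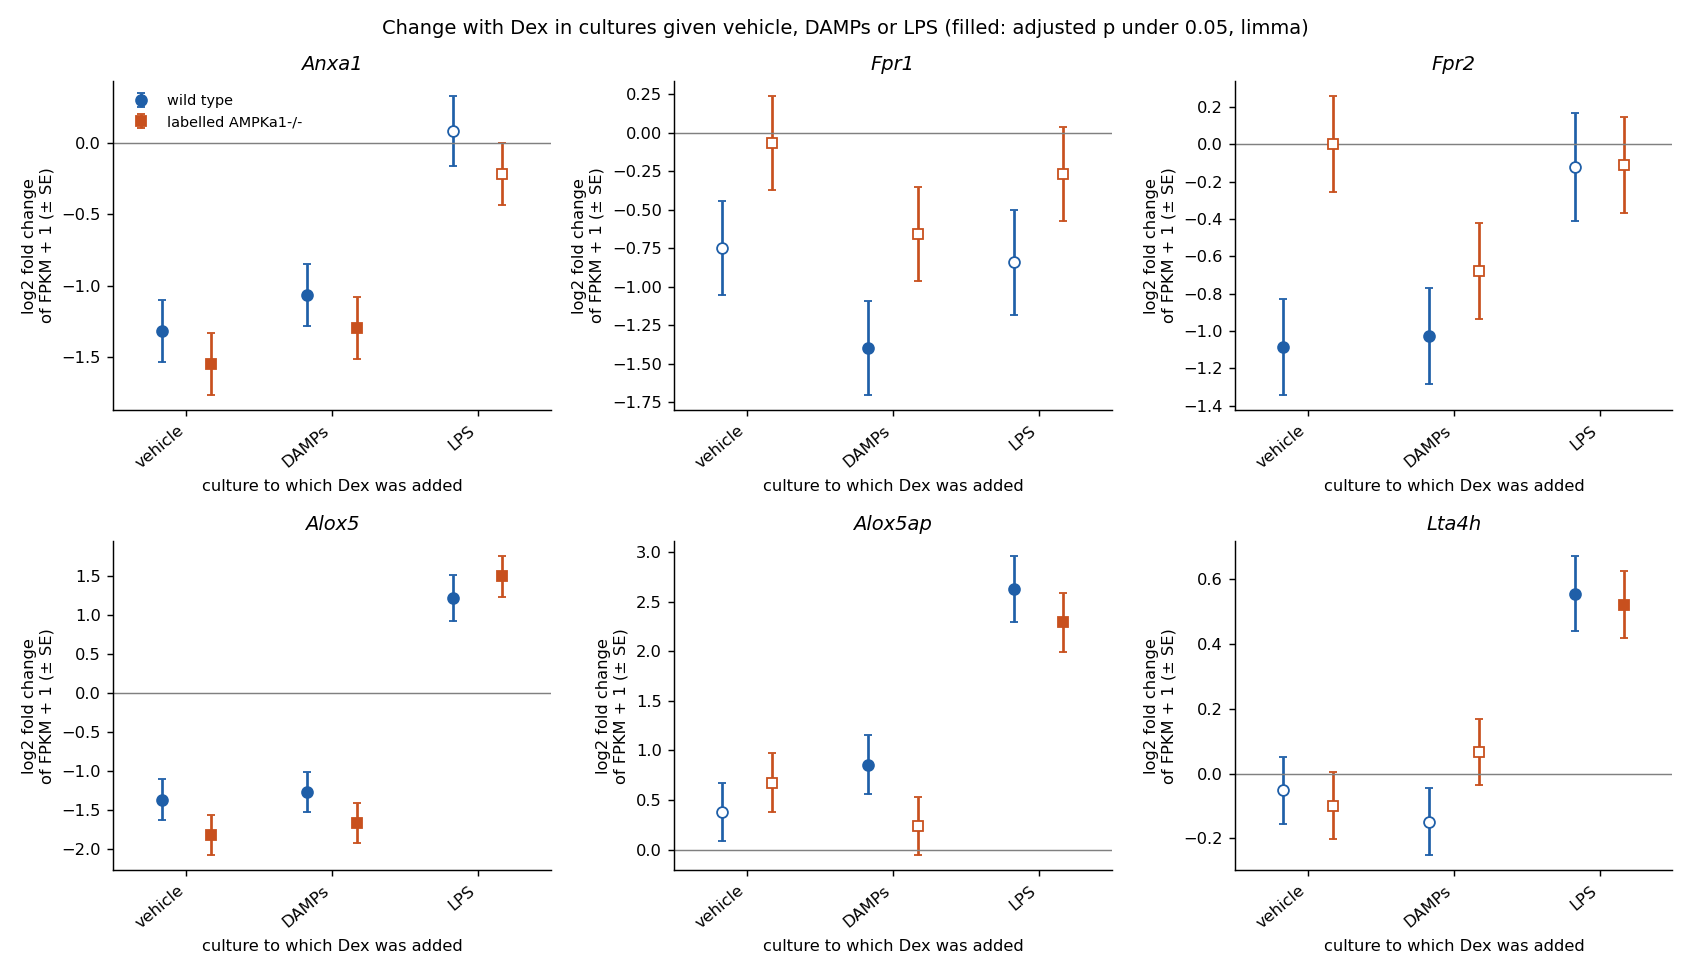
Log2 fold change of FPKM + 1 with Dex (vertical axis, bars 1 SE from limma) in cultures given vehicle, DAMPs or LPS (horizontal axis), for WT (blue circles) and libraries labelled AMPKa1-/- (orange squares). Filled symbols have an adjusted p under 0.05; the Alox5 change is below 0 with vehicle and DAMPs and above 0 with LPS in both genotypes, and vertical scales differ between panels.

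DAMPs alone raised both receptors. Fpr1 and Fpr2 were called higher in both genotypes, where 1.22% (WT) and 1.89% (label AMPKa1-/-) of all genes were called higher, and the other 4 genes were not called. Fpr1 read 6.95, 8.48 and 9.51 FPKM with DAMPs in WT, against 2.75, 3.51 and 1.40 in vehicle (1.43 ± 0.31, adjusted p = 0.0105). In libraries labelled AMPKa1-/- it read 19.7, 19.8 and 17.1, against 6.18, 9.11 and 2.83 (1.60 ± 0.31, adjusted p = 0.00166). Fpr2 read 19.0, 18.6 and 36.2 FPKM in WT, with replicate 3 well above the rest (1.38 ± 0.26, adjusted p = 0.00418). Under the label AMPKa1-/- it read 36.3, 36.0 and 38.1 (1.65 ± 0.26, adjusted p = 2.95e-04). In each genotype all DAMPs libraries lay above all vehicle libraries for both receptors. The WT calls of Fpr1 and Fpr2 were lost without WT DAMPs replicate 3 (1.34, adjusted p = 0.111, and 1.08, adjusted p = 0.0784), that of Fpr1 also without WT Vehicle replicate 3 (1.17, adjusted p = 0.104), and both when only the groups compared were fitted (adjusted p = 0.144 and 0.153). The number of all genes called in WT, 228, was 26 without WT DAMPs replicate 3, 81 and 114 without WT Vehicle replicate 3 and 1, and 372 without WT DAMPs replicate 2. With the label AMPKa1-/- it was 469, and 267 to 311 without DAMPs replicate 1 or 3 or vehicle replicate 2 or 3. Anxa1 read 2133, 1476 and 1697 FPKM with DAMPs in WT, a change of -0.26 ± 0.22 (adjusted p = 0.937). With 1 library left out this change was -0.49 to -0.094.

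Dex given with DAMPs lowered Anxa1 and Alox5 in both genotypes, as it did without DAMPs; both receptors were called lower in WT, and with the label AMPKa1-/- their calls depended on the fit. In WT 4 genes fell and 1 rose (24.3% of all genes passed), and with the label AMPKa1-/- 2 fell (12.2% of all genes called lower). Anxa1 read 988, 729 and 808 FPKM in WT (-1.06 ± 0.22, adjusted p = 4.49e-04) and 566, 721 and 489 with the label AMPKa1-/- (-1.30 ± 0.22, adjusted p = 4.05e-05). Alox5 read 1.15, 1.68 and 1.75 FPKM in WT (-1.27 ± 0.26, adjusted p = 4.43e-04) and 2.01, 4.40 and 3.0 with the label AMPKa1-/- (-1.67 ± 0.26, adjusted p = 1.44e-05). For both genes no DAMPs + Dex library overlapped the DAMPs libraries of its genotype.

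Fpr1 read 3.43, 1.57 and 2.79 FPKM with DAMPs + Dex in WT, overlapping its vehicle values (-1.40 ± 0.31, adjusted p = 8.98e-04). Fpr2 read 10.5, 10.4 and 12.2 (-1.03 ± 0.26, adjusted p = 0.0035, and -0.72 with an adjusted p of 0.0508 without WT DAMPs replicate 3). With the label AMPKa1-/- the receptors read 9.18, 14.5 and 11.5 and 19.3, 19.5 and 30.7, and their changes of -0.66 ± 0.31 and -0.68 ± 0.26 did not pass (adjusted p = 0.121 and 0.0545). No DAMPs + Dex library overlapped the DAMPs libraries of that label for either receptor. Both changes passed when only the groups compared were fitted (adjusted p = 0.0261 and 0.0291), and that of Fpr2 also with quantile normalization (-0.73, adjusted p = 0.0467) and without any 1 of 4 libraries (adjusted p = 0.0212 to 0.0456). The genotype difference in these changes was 0.74 ± 0.43 for Fpr1 and 0.35 ± 0.36 for Fpr2, neither called. With 1 library left out it was 0.52 to 0.91 for Fpr1 and 0.047 to 0.51 for Fpr2. Alox5ap rose in WT from 142, 168 and 112 to 274, 292 and 201 FPKM (0.85 ± 0.30, adjusted p = 0.0349), a call lost without DAMPs replicate 1 or 3 or DAMPs+Dex replicate 1 or 2 of WT (0.70 to 0.87), without a filter (adjusted p = 0.0821) or with centring (adjusted p = 0.0606). In libraries labelled AMPKa1-/- Alox5ap read 256, 188 and 169 FPKM with DAMPs and 266, 264 and 191 with DAMPs + Dex, which overlapped (0.24 ± 0.30, adjusted p = 0.61). That change was 0.11 to 0.41 with 1 library left out. Compared with vehicle, DAMPs + Dex lowered Anxa1 (-1.33 ± 0.22) and Alox5 (-1.51 ± 0.26) in WT (13.9% of all genes called lower) and in libraries labelled AMPKa1-/-, where Fpr1 and Fpr2 were also called higher (26.1% of all genes passed), by 0.94 ± 0.31 and 0.97 ± 0.26. Those receptor calls were lost without vehicle replicate 3 labelled AMPKa1-/- (0.56 and 0.59), the library with the lowest receptor values of its group, and without DAMPs+Dex replicate 3 of the same label (adjusted p = 0.0521 and 0.0505); that of Fpr1 was also lost without DAMPs+Dex replicate 2 (0.79).

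The libraries labelled AMPKa1-/- held more Fpr1, Fpr2 and Alox5 than WT under each treatment by their group means, while Anxa1 and Lta4h were not called different under any. With Dex, Anxa1 passed under quantile normalization (-0.69, adjusted p = 0.0308), and Lta4h without LPS replicate 2 or 3 labelled AMPKa1-/- (-0.27, adjusted p = 0.0489 and 0.0346). Lta4h also passed with DAMPs without LPS replicate 3 of that label (-0.39, adjusted p = 0.0422). The calls were few. Alox5 was called higher in vehicle (1.22 ± 0.26, adjusted p = 0.0227, 0.229% of all genes called higher), where no library overlapped (16.6, 18.8 and 12.2 FPKM against 5.08, 8.36 and 5.39). It was also called with Dex (0.76 ± 0.26, adjusted p = 0.0341, 11% of all genes) and with DAMPs (1.07 ± 0.26, adjusted p = 0.0451, 0.449%). Fpr1 was called higher with Dex (1.61 ± 0.31, adjusted p = 0.00191), where it read 6.14, 7.09 and 3.20 FPKM against 1.23, 0.652 and 1.32. It was called again with LPS + Dex (1.39 ± 0.31, adjusted p = 0.0216, 0.335%) and with DAMPs + Dex (1.84 ± 0.31, adjusted p = 0.00111, 0.555%). In DAMPs + Dex it read 9.18, 14.5 and 11.5 FPKM against 3.43, 1.57 and 2.79, again without overlap. Fpr2 was called with Dex (1.45 ± 0.26, adjusted p = 0.00117). None of the 6 genes was called with LPS, where 0.766% of all genes were, and there Fpr1 differed by 0.82 ± 0.34 (adjusted p = 0.348).

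Several of these calls rested on single libraries. The number of genes called with Dex, 3008, was 304 without WT Dex replicate 2, and it was also over 1.5 times smaller without Dex replicate 2 labelled AMPKa1-/- (308) or WT Dex replicate 1 (1662). The smaller counts under the other treatments moved as well. In vehicle 49 genes were called, and 28 to 32 without replicate 1 or 2 labelled AMPKa1-/- or WT replicate 1 or 3. In LPS the 87 calls became 9 without WT replicate 3 and 22 without replicate 1 labelled AMPKa1-/-. In LPS + Dex the 76 became 36 to 48 without replicate 1 or 3 labelled AMPKa1-/- or WT replicate 1. In DAMPs the 83 became 25 to 55 without any 1 of the 6 libraries compared. In DAMPs + Dex the 120 became 49 to 73 without replicate 1 or 2 labelled AMPKa1-/- or WT replicate 2 or 3. The Alox5 calls in vehicle, Dex and DAMPs were lost with a pseudocount of 0.1 (adjusted p = 0.354, 0.0796 and 0.413) and without single libraries: in vehicle without replicate 1 or 2 labelled AMPKa1-/- or WT replicate 1 or 3 (1.10 to 1.18), in Dex without replicate 1 or 2 of either genotype (0.58 to 0.81), and in DAMPs without any 1 of most libraries, of which all 6 of the groups compared but replicate 3 labelled AMPKa1-/-. The Fpr1 call in LPS + Dex was lost without replicate 1 or 2 labelled AMPKa1-/- or WT replicate 1 or 3 (1.11 to 1.37) and with a pseudocount of 0.1 (adjusted p = 0.0842). Centring changed the share of all calls that were higher with Dex from 41.4% to 59.1%, and with LPS + Dex from 50% to 60.8%. Averaged over the 5 treatments in which all 3 replicate numbers were present, log2(FPKM + 1) was higher with the label AMPKa1-/- by 1.37 for Fpr1, 0.73 for Fpr2, 0.87 for Alox5, 0.51 for Ltc4s and 0.06 for Alox15, and it differed by -0.21 for Lta4h. The 3 averages of each genotype did not overlap for these 6 genes, Lta4h being lower with the label AMPKa1-/-, which gives an exact permutation p of 0.1 (2-sided), the smallest that 3 against 3 allows. They overlapped for Anxa1 (-0.33) and Alox5ap (0.27).

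**Figure D4:**
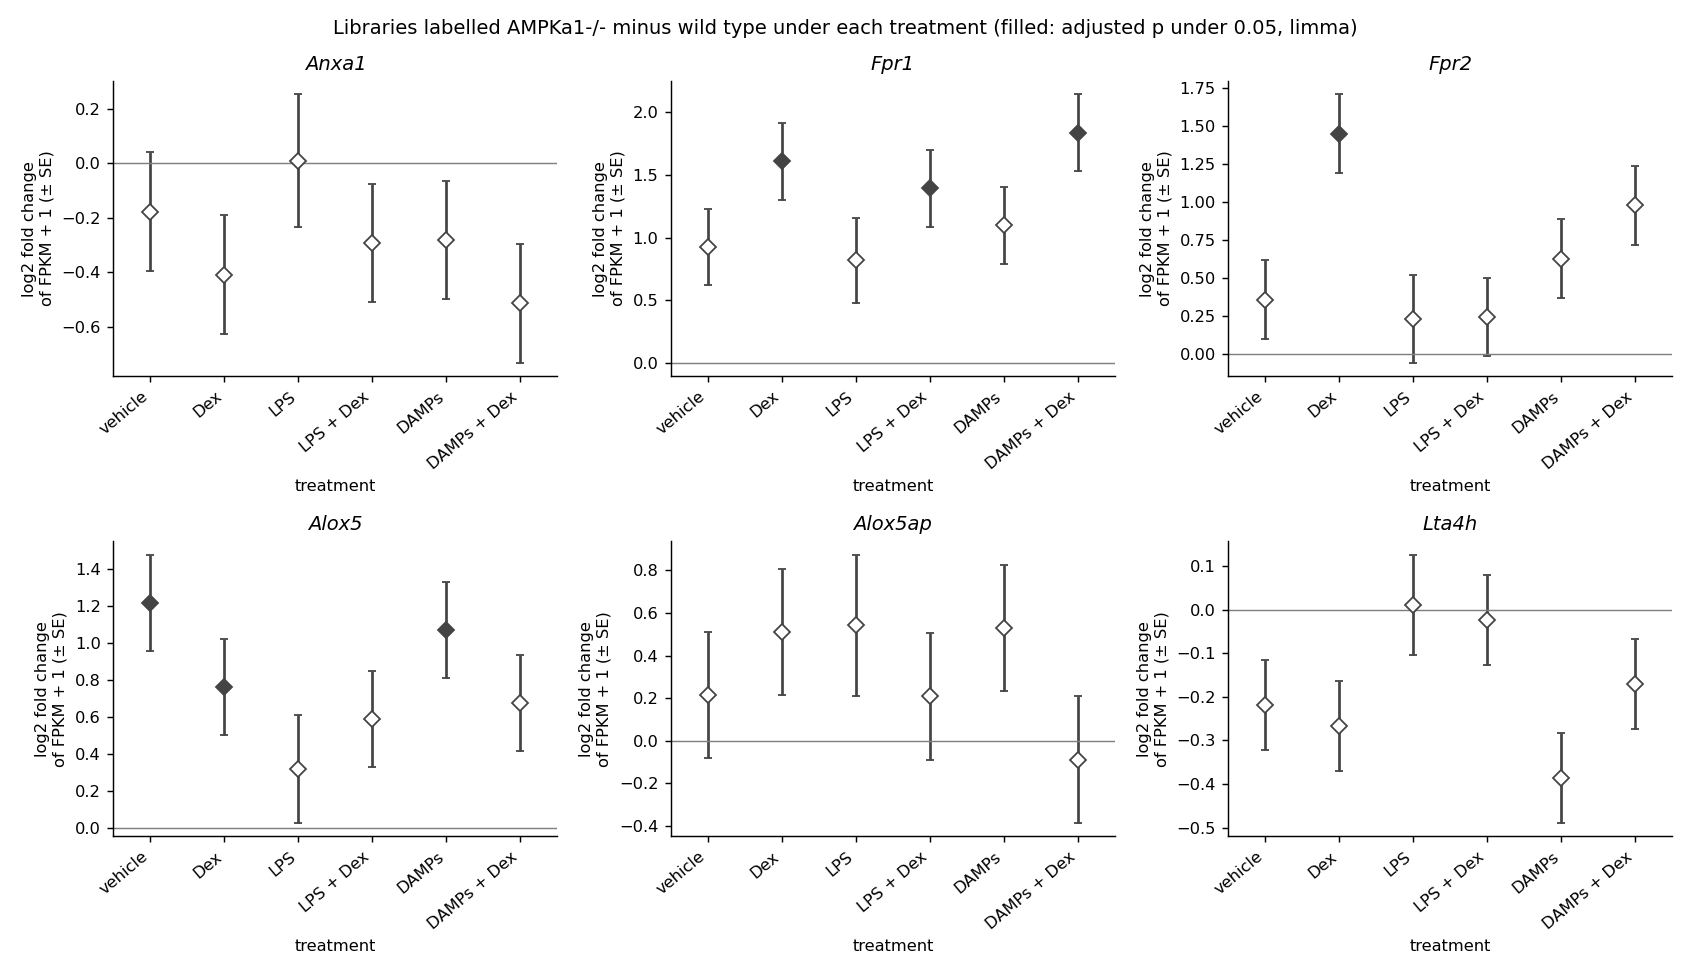
Difference in log2(FPKM + 1) between libraries labelled AMPKa1-/- and WT (vertical axis, bars 1 SE from limma) under each treatment (horizontal axis). Filled symbols have an adjusted p under 0.05; Fpr1, Fpr2 and Alox5 lie above 0 under all 6 treatments, and vertical scales differ between panels.

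Markers of neutrophils, which carry FPR1, FPR2 and 5-lipoxygenase, moved with the genotype label in part. Of 12 such markers 7 were tested. Group means of Camp were 0.134 to 2.19 FPKM without LPS and 123 in WT LPS, so Camp passed the filter only through libraries given LPS. With Dex, 6 of the 7 (S100a8, S100a9, Camp, Ltf, Ngp and Mmp8) were called higher with the label AMPKa1-/-, where 11% of all genes were. The median difference of the 7 was 1.43 where that of all genes was -0.09. Ltf, with a median of 0.484 FPKM over all libraries, fell below the filter without DAMPs replicate 1 or vehicle replicate 1 of that label. Its call is therefore given as a description. With no filter Ltf was not called higher, and Mpo was. Without WT Dex replicate 2 or Dex replicate 2 labelled AMPKa1-/-, Ngp was the 1 marker still called; 4 were called without Dex replicate 1 labelled AMPKa1-/-. The summed level of the 12 was 48.3 to 66.1 FPKM in WT Dex and 104 to 142 with the label AMPKa1-/-. It was also 60.0 to 118 FPKM in WT vehicle, 232 to 290 in WT LPS and 545 to 1225 in WT LPS + Dex. With the label AMPKa1-/- the sum was 97.7 to 118 FPKM in vehicle, 239 to 248 in LPS and 371 to 649 in LPS + Dex. The members did not move together with LPS: in WT S100a8 and Csf3r rose (1.81 ± 0.54 and 0.82 ± 0.20) and Mmp8 fell (-2.37 ± 0.39). S100a9, Ltf and Ngp did not pass (-0.22 ± 0.76, -0.79 ± 0.46 and -1.20 ± 0.55). Camp rose as well (6.30 ± 0.33), but because the same libraries carried it past the filter, its rise is given as a description. In WT LPS + Dex most of the sum was S100a8, with a mean of 747 FPKM, while S100a9 averaged 0.527. The collagenase gene Mmp8 was also called higher with the label AMPKa1-/- than in WT in LPS (1.73 ± 0.39), LPS + Dex (1.87 ± 0.35) and DAMPs + Dex (1.52 ± 0.35). In Dex it read 68.2, 71.9 and 54.6 FPKM against 30.8, 17.6 and 23.3. By group means in LPS + Dex, S100a8, Camp and Csf3r were lower with the label (396, 28.3 and 27.9 FPKM against 747, 39.9 and 30.7). S100a9, Ltf and Ngp were higher there. With LPS alone Camp and Csf3r were also lower with the label (102 and 101 FPKM against 123 and 117), and S100a8, S100a9, Ltf and Ngp higher. The listed genes Ly6g, Mpo, Elane, Cxcr2 and Retnlg never exceeded 0.200, 0.218, 0.475, 0.216 and 0.291 FPKM in any library. Of these, Mpo read 0.145 to 0.218 FPKM in Dex libraries labelled AMPKa1-/- and 0 in all WT Dex libraries. The most abundant of the list differed between groups: S100a8 led in LPS + Dex, with 617, 478 and 1147 FPKM in WT, while Csf3r had the highest median over all libraries, 37.9 FPKM, against 16.3 for Mmp8 and 7.85 for S100a8. Markers of eosinophils, basophils and mast cells, of dendritic cells and of lymphocytes had no member with a mean of 1 FPKM. The part of these markers in the changes of Fpr1 and Fpr2 with LPS and in the genotype differences of Fpr1, Fpr2 and Alox5 was not tested, and in bulk RNA a different number of cells of a type and a different amount of RNA per cell cannot be told apart.

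In the fit reported here, no gene passed the direct test of whether a treatment effect differed between genotypes. In limma 0 of 11354 genes were called for each of the 5 treatment effects tested this way, with 2441 genes at an unadjusted p under 0.05 for Dex against vehicle, 514 for LPS, 311 for LPS + Dex against LPS, 66 for DAMPs and 234 for DAMPs + Dex against DAMPs. Among the 6 genes the largest of these differences was that of Fpr2 for Dex, given above. For LPS against vehicle Alox5 differed by -0.90 ± 0.39 (adjusted p = 0.947). By ratios of means the order was the reverse, a fall of 84.6-fold in WT and 43.8-fold with the label AMPKa1-/-. All LPS values of Alox5 lie below the added 1 FPKM, so the sign of this difference depends on the scale.

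Ltc4s and Alox15 were barely expressed. Ltc4s ranged from 0 to 3.06 FPKM, at most about 56 fragments, and was listed at 0 in 2 libraries. It read 0.531, 1.26 and 0.244 FPKM in WT vehicle and 0.102, 0 and 0.172 in WT Dex, while the label AMPKa1-/- gave 1.46, 0.799 and 1.08 and 2.22, 0.844 and 0.995. The WT Dex libraries all lay below the WT vehicle libraries, and those labelled AMPKa1-/- overlapped. Alox15 was listed at 0 in 17 of 35 libraries and reached 0.268 FPKM, about 12 fragments, at most. LPS + Dex was the only treatment with a value above 0 in all 6 libraries, 0.0749, 0.115 and 0.154 FPKM in WT and 0.113, 0.268 and 0.152 with the label AMPKa1-/-.

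The wider pathway was described with 47 further genes in 5 lists, of which 24 were tested. With LPS 2 rose and 17 fell in WT, and with LPS + Dex against LPS 12 rose and 4 fell, where the median change of the 24 was -1.05 and 0.40 and that of all genes -0.19 and -0.03. In WT, LPS raised 19.9% and lowered 35.8% of the genes tested, and LPS + Dex against LPS raised 16.6% and lowered 17.5%. In libraries labelled AMPKa1-/- LPS raised 3 and lowered 17, and LPS + Dex against LPS raised 9 and lowered 5, with medians of -0.98 and 0.21 against -0.30 and 0.01 for all genes; of all genes LPS raised 20.2% and lowered 44.1%, and LPS + Dex against LPS raised 19.3% and lowered 18.4%. With Dex alone 3 rose and 13 fell in WT, with a median of -0.47 against 0.05 for all genes, of which 15.9% were called higher and 14.9% lower. With the label AMPKa1-/- 4 rose and 8 fell, with a median of -0.20 against -0.05, and 11.9% of all genes were called higher and 16% lower. These counts describe lists chosen with earlier results of these data known.

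All 10 tested annexins and S100 partners fell with LPS in both genotypes, where 35.8% (WT) and 44.1% (label AMPKa1-/-) of all genes were called lower. Their median change was -1.21 and -1.04. Anxa2, which forms a tetramer with S100A10 at membranes, then rose with LPS + Dex, from 366 and 359 to 1271, 1221 and 1606 FPKM in WT (1.90 ± 0.21, adjusted p = 2.58e-08). S100a10 rose from 164 and 169.9 to 308, 412 and 397 (1.14 ± 0.19). Anxa4 fell a little further, from 180.2 and 167 to 138, 123 and 118 (-0.46 ± 0.11). Anxa1 stood at 0.08 ± 0.24 in the same comparison, while Anxa1 and Anxa2 both fell with Dex alone (-1.32 ± 0.22 and -1.44 ± 0.19). The difference between these 2 genes was not tested.

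Among lipid mediator receptors 4 of 9 were tested. Ltb4r1, the high-affinity leukotriene B4 receptor, read 0.607 and 0.391 FPKM with LPS and 5.96, 5.92 and 4.88 with LPS + Dex in WT (2.13 ± 0.29). The median of Ltb4r1 over all libraries was 0.929 FPKM, so libraries given LPS + Dex helped to carry it past the filter. The rise of Ltb4r1 in either genotype is therefore given as a description. Its changes with Dex alone and with LPS alone did not pass (-0.09 ± 0.26 and -0.03 ± 0.29). Cysltr1, a cysteinyl leukotriene receptor, fell from 9.72 and 6.70 to 4.21, 3.57 and 2.35 (-1.08 ± 0.26). Under the label AMPKa1-/- the changes were 2.31 ± 0.26 and -1.04 ± 0.23.

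In the list on arachidonate release and leukotriene handling 10 of 15 genes were tested, and with LPS + Dex against LPS 7 rose and 2 fell in WT, against 16.6% and 17.5% of all genes, with a median of 1.06 where that of all genes was -0.03. Pla2g4a, the cytosolic phospholipase A2 that frees arachidonic acid, rose with LPS to 98.9 and 88.9 FPKM from 13.1, 12.6 and 15.7 and stood at 27.1, 21.2 and 16.5 with LPS + Dex (-2.09 ± 0.24, adjusted p = 5.11e-08). It thus moved opposite to Alox5, Alox5ap and Lta4h in both steps. Mgst2, a microsomal transferase able to make leukotriene C4, read 0.457 and 0.640 FPKM with LPS and 11.1, 8.97 and 18.8 with LPS + Dex (3.11 ± 0.40). Mgst3 rose from 2.92 and 3.48 to 15.9, 17.1 and 19.2 (2.13 ± 0.23). Both rises were called with the label AMPKa1-/- as well (2.65 ± 0.36 and 1.86 ± 0.21).

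**Figure D5:**
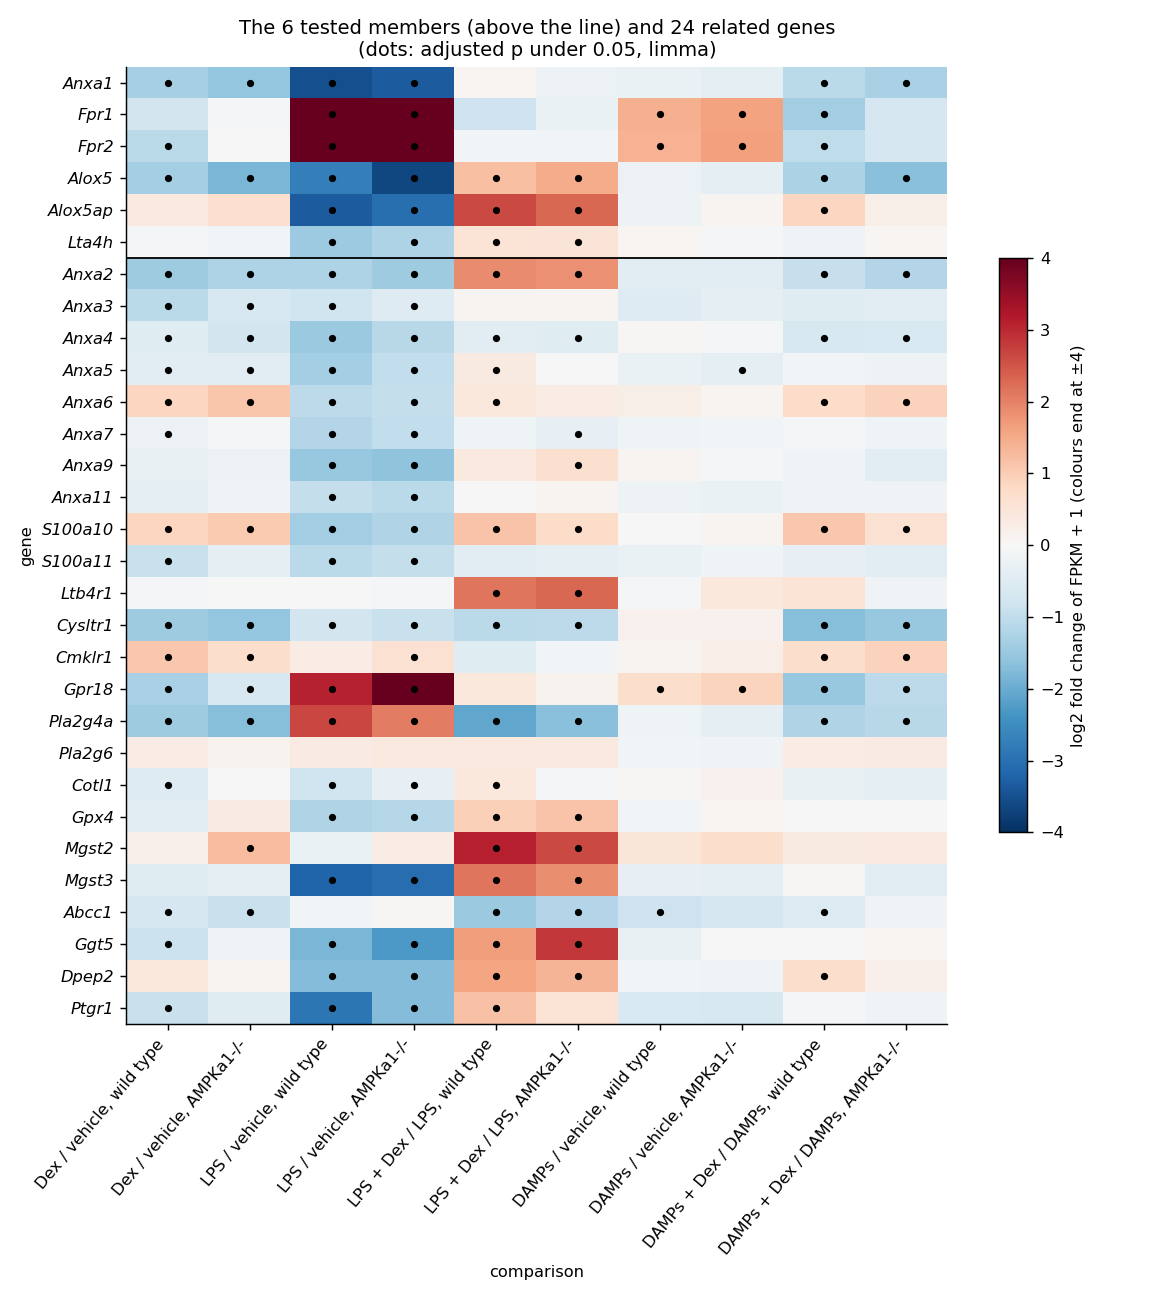
Log2 fold changes of FPKM + 1 for the 6 tested members (above the line) and 24 related genes (rows) in 10 comparisons (columns, each treatment comparison in WT and in libraries labelled AMPKa1-/-). Red is higher and blue lower, colours end at 4 in either direction, and dots mark an adjusted p under 0.05 in limma; in the LPS + Dex / LPS columns Alox5ap, Anxa2, Ltb4r1, Mgst2 and Mgst3 are red and Pla2g4a is blue.

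Over the 12 group means of log2(FPKM + 1) the members' patterns were compared as a description, since groups share treatments. Fpr1 and Fpr2 had a Pearson r of 0.988 with each other, and Anxa1 had -0.850 with Fpr1 and -0.861 with Fpr2. Alox5 followed Anxa1 at 0.780 and Alox5ap at 0.667, and Alox5ap followed Lta4h at 0.878. Among 3867 candidate genes with variable levels, those closest to Anxa1 were Ankrd55 (0.995), Sbk2 (0.994) and Mocos (0.993), with r in parentheses. Closest to Fpr1 were Gm13012 (0.992), Arhgdib (0.989) and Rhof (0.981), and to Fpr2 Siglece (0.996), Arhgdib (0.994) and Pde4b (0.991). Closest to Alox5 were Myadm (0.953), Rab19 (0.950) and Acsf2 (0.942). For Alox5ap they were Acaa2 (0.995), AI467606 (0.986) and Tmem8 (0.985), and for Lta4h Gm9967 (0.990), Pdxk (0.989) and Engase (0.988).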

How the data were processed

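Total RNA of cultured macrophages was sequenced in 35 libraries. The authors deposited FPKM (fragments scaled to gene length and library total) for 47069 Ensembl genes; their processing notes name Bowtie2 2.2.3, TopHat2 2.0.12, HTSeq 0.6.1, DESeq2 and the build GRCm38, and the annotation release is not given in the sources used here. GENCODE M21 symbols matched 46488 identifiers. Library totals, read from the value of 1 fragment, were 15837203 to 31955298 fragments (median 19973568), so 1 fragment on a gene of 1 kb is worth 0.0313 to 0.0631 FPKM. Where such totals put a gene under 10 fragments, between 55.1% and 63.4% of values fell within 0.001 of a whole fragment, so no counts were rebuilt.

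Genes averaging 1 FPKM or more (11354) entered the test, and their log2(FPKM + 1) was fitted with limma 3.58.1 in R 4.3.3, with 12 groups over all 35 libraries and a mean-variance trend. Tests were 2-sided with Benjamini-Hochberg adjustment over all genes in each of 27 comparisons, and the code was tested on simulated data. Fold changes on this scale understate those of low genes. Replicates correlated at 0.987 to 0.997. Same-numbered libraries deviated together, with every correlation over 0.1 in at least 3 pairs, only among libraries labelled AMPKa1-/-, for Dex against vehicle (0.217 to 0.400), LPS against vehicle (0.124 to 0.316), LPS + Dex against LPS (0.356 to 0.375) and LPS + Dex against vehicle (0.246 to 0.365).

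The 8 genes and the lists were chosen with earlier results of these data known. From each related list up to 3 genes were named, those with the largest change called in WT LPS + Dex against LPS, and for each tested member the 3 genes of highest Pearson r over the 12 group means, among genes with an SD of group means of at least 0.5. Other settings tried were a replicate block, each library left out in turn, a fit of only the groups compared, quantile normalization, centring on one median, a pseudocount of 0.1, and the filter dropped or raised to 5 FPKM.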

Additional observations from a re-analysis of the deposited data

How the results depend on the processing

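Of 67 called changes of the members, 40 kept their call in all 42 alternatives, 14 changes of Alox5 kept it wherever Alox5 was tested but were untested in at least 1 alternative, 12 lost their call without 1 library, 12 lost it under another setting, and 0 changed sign. Of 95 uncalled changes, 14 passed and 32 turned sign in at least 1 alternative. Those with values in the report that turned sign were, in WT LPS + Dex against LPS, Anxa1 (-0.00069 with the replicate block, -0.11 to 0.27 with 1 library left out) and Fpr2 (-0.32 to 0.072), and in the same comparison with the label AMPKa1-/- Anxa1 (-0.36 to 0.021) and Fpr2 (0.0058 with quantile normalization, -0.24 to 0.0043 with 1 library left out). In Dex against vehicle with that label they were Fpr1 (0.0201 with centring, 0.0806 with quantile normalization, -0.45 to 0.249 with 1 library left out) and Fpr2 (-0.38 to 0.231), and in WT Lta4h (-0.111 to 0.0205). The change of the Dex effect on Fpr1 turned in WT (0.299 with a pseudocount of 0.1, 0.0704 with centring, 0.0175 with quantile normalization, -0.40 to 0.186 with 1 library left out) and with the label AMPKa1-/- (-0.52 to 0.183), where that on Fpr2 turned too (-0.34 to 0.272). The causes were not tested except where stated.

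The number of members called moved as follows. Fitting only the groups compared gave 1 for WT LPS + Dex against LPS, 0 for WT DAMPs against vehicle, 5 for DAMPs + Dex against DAMPs and 2 for DAMPs + Dex against vehicle with the label AMPKa1-/-, and 0 for the genotypes in vehicle, LPS + Dex and DAMPs. A mean FPKM of at least 5, which leaves Alox5 untested, gave 1 for WT DAMPs + Dex against vehicle, 1 for Dex against vehicle and for DAMPs + Dex against DAMPs with the label AMPKa1-/-, and 0 for the genotypes in vehicle and DAMPs. A pseudocount of 0.1 gave 0 for the genotypes in vehicle, LPS + Dex and DAMPs, and no filter gave 5 for LPS + Dex against LPS with the label AMPKa1-/- and 0 for the genotypes in DAMPs. Leaving out 1 library gave 0 to 2 for WT DAMPs against vehicle, 3 to 5 for WT DAMPs + Dex against DAMPs, 2 to 4 for DAMPs + Dex against vehicle with the label AMPKa1-/-, and for the genotypes 0 to 2 in vehicle, 0 to 1 in LPS + Dex, 0 to 2 in DAMPs and 1 to 2 in DAMPs + Dex.

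With the replicate block, 0 of the 24 member changes given in the report or called in the paired comparisons changed call; elsewhere, where libraries share only a number, Fpr1 passed with the block in WT Dex against vehicle (-0.75, adjusted p = 0.0396) and in WT LPS + Dex against LPS (-0.87, adjusted p = 0.0315), as did Fpr2 in the change of the Dex effect in WT (1.03, adjusted p = 0.0436), and the block gave 2 members for the genotypes in DAMPs, 83 genes for the genotypes in vehicle (49 without it) and 5 genes for the genotype difference in the LPS effect (0 without it).

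Over all genes, fitting only the groups compared called 2065 in WT LPS + Dex against LPS (3871 over all groups), 1 in WT DAMPs against vehicle (228), and 19, 3, 7, 11 and 35 for the genotypes in vehicle (49), LPS (87), LPS + Dex (76), DAMPs (83) and DAMPs + Dex (120). No filter called 92, 450 and 146 for the genotypes in vehicle, LPS and LPS + Dex, and 21, 118, 75, 2 and 9 genotype differences in the 5 treatment effects, where the filtered fit called 0. A mean FPKM of at least 5 called 27 in vehicle and 54 in DAMPs, and a pseudocount of 0.1 called 41 in DAMPs. For the genotype difference in the Dex effect, centring called 4, quantile normalization 1 and the groups compared 3. Leaving out 1 library called 0 to 3 genes for that difference, 0 to 13 for the LPS effect and 0 to 2 for LPS + Dex against LPS. Centring moved the share of calls that were higher from 31.7% to 50.3% in WT LPS + Dex against vehicle, from 29.0% to 50.9% with the label AMPKa1-/-, from 54.0% to 69.9% for the genotypes in LPS and from 46.5% to 56.7% for the change of the Dex effect in WT. Depth limits Ltc4s and Alox15, with at most 56 and 12 fragments, and also Alox5 in the LPS libraries. There Alox5 had about 4.65 and 9.30 fragments in WT and 44.2, 39.5 and 2.33 with the label AMPKa1-/-. Its comparisons with LPS rest on these low values.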

Other observations

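The other formyl peptide receptor genes and the other lipoxygenases were at or near 0 in these cultures. Of the other formyl peptide receptor genes, Fpr-rs3, Fpr-rs4, Fpr-rs6 and Fpr-rs7 were listed at 0 in all 35 libraries, and Fpr3 had values above 0 in the 11 libraries with LPS or LPS + Dex and in no other. Of the other lipoxygenases, Alox12b was listed at 0 in all 35, and Alox8, Alox12, Alox12e and Aloxe3 did not exceed 0.0747, 0.776, 0.0394 and 0.135 FPKM.

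Receptors for other pro-resolving mediators were also measured. Gpr18, a receptor ascribed to resolvin D2, read 2.82, 2.36 and 1.61 FPKM in WT vehicle, 31.0 and 21.9 with LPS and 33.2, 41.7 and 31.0 with LPS + Dex (3.07 ± 0.20 for LPS against vehicle, adjusted p = 1.97e-13 in limma). Cmklr1, the receptor of chemerin and resolvin E1, read 73.3, 61.6 and 91.8 FPKM in WT vehicle and 159, 164 and 151 with Dex (1.07 ± 0.19, adjusted p = 1.04e-04 in limma). Both genes were picked out after their values were seen.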
